A study of Mus musculus with 8 samples.

Results

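Genes of thyroid hormone transport, activation and reception were examined in the mouse median eminence (ME), the part of the hypothalamic floor where nerve endings release hormones into portal blood. They were chosen by name for the thyroid hormone step they serve: Slco1c1, a thyroxine transporter, Dio2 and Dio3, an activating and an inactivating deiodinase, Crym and Ttr, 2 hormone binding proteins, Thra and Thrb, the nuclear receptors, and Trhde, an ectoenzyme that breaks down thyrotropin-releasing hormone (TRH). They are 8 of 27998 genes in the single-cell table and 8 of 55450 in the bulk table, and each was matched by its Ensembl identifier. A single droplet library held dissociated ME cells pooled from 10 female wild-type C57BL/6 mice (C57BL/6N in the methods), 2 months of age. Bulk RNAseq libraries were made from microdissected ME of 3 control mice labelled WT and of 4 mice labelled Rax::BrafV600E mutant, 1 mouse per library, all C57BL/6 and 2 months of age in the labels. In the mutants, tamoxifen-inducible Cre expressed from the Rax locus activated BrafV600E in Rax+ cells, and the libraries serve to set tumour tissue against normal ME. The methods place the tissue 2 months after tamoxifen given to adults, which conflicts with the labelled age, and the age is therefore uncertain. The labels give no sex for the bulk mice.

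Thyroxine made by the thyroid is a prohormone. Cells take it up through transporters such as Slco1c1 (OATP1C1), Dio2 removes an outer-ring iodine to give the active hormone triiodothyronine, and Dio3 removes an inner-ring iodine and so inactivates both forms. Crym (mu-crystallin) binds triiodothyronine in the cytosol, Ttr carries thyroxine in blood and cerebrospinal fluid, and Thra and Thrb act on DNA with retinoid X receptors. Tanycytes, the radial glia that line the ventricle floor and reach the portal vessels, are known as the main hypothalamic site of Dio2. Their Trhde can degrade TRH released near their end feet, and thyrotropin from the neighbouring pars tuberalis can reach a receptor, Tshr, on them.

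Promoter windows are shown for Dio2 and Trhde, which had 86.0% and 89.4% of their UMIs in clusters with tanycyte markers. The windows are the 250 bases before the RefSeq start (GRCm38.p6, minus strand, written 5′ to 3′), at chr12:90739039-90739288 for Dio2 and chr10:114802303-114802552 for Trhde. Capitals mark the searched letters TGACGTCA (a cAMP response element), TGACG (its shorter form, which overlaps it), AGGTCA (a hormone receptor site), TAATTA (a homeobox site), its variant form TAATTG, the TATA box written as TATAAA, and the CCAAT box, on either strand.
Dio2: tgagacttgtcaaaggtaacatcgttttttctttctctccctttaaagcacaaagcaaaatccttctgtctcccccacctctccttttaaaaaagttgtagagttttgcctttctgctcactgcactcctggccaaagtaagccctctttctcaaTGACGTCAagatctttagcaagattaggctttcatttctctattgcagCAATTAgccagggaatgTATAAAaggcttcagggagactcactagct
Trhde: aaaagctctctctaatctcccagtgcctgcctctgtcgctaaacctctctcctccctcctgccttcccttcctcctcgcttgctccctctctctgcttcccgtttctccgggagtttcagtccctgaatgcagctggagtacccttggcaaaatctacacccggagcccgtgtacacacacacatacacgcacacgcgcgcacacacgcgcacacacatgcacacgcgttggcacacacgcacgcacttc

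The Dio2 window held TGACGTCA from base -95 to -88, counted back from the start, TAATTG on the opposite strand (printed as its reverse complement) from -47 to -42 and TATAAA from -30 to -25. Among 32851 promoter windows of the same length, 1.55% held TGACGTCA, 17.8% TGACG, 7.17% TAATTG and 12.4% TATAAA. The Trhde window held none of the searched letters, although 14.0% of windows held AGGTCA, 4.84% TAATTA and 33.8% CCAAT. The RefSeq start of Dio2 lies 600 bases before the GENCODE M21 gene. Windows of Slco1c1, Dio3 and Thrb were searched too. The Slco1c1 window held CCAAT, and the Dio3 window held CCAAT and TATAAA. Of the 2 Thrb windows, 1 held AGGTCA, from base -184 to -179, and TGACG, and the other held TATAAA. Such matches describe letters only and say nothing about binding.

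The single-cell table held 990 cells and 9846289 unique molecular identifiers (UMIs, 1 per captured transcript), with a median of 7832 UMIs per cell. Clustering without the 8 genes and the other pathway genes gave 11 clusters. The tanycyte-like cluster (177 cells) passed 7 of 8 tanycyte markers, Rax and Col25a1 included. The ependymal-like cluster (48 cells) passed 8 of 8 ependymal and 4 of 8 tanycyte markers, among them Rax. Levels are given in CPM, the UMIs of a gene for every 1000000 UMIs of a cluster. Brackets hold 95% intervals, exact Poisson for levels and exact Clopper-Pearson for shares of cells. With 1 library there is no replicate and no test between clusters, and both intervals cover counting error only. Erythrocyte-like cells (242 cells), which should lack these genes, served as the level of free RNA; their median of 7708 UMIs was close to the 7892 of tanycyte-like cells, although haemoglobin genes and Alas2 made up 929224 CPM of them.

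Dio2 (chr12:90724552-90738438, GRCm38, minus strand) was highest in tanycyte-like cells. Its level was 163 CPM (145 to 183) there and 91.3 CPM (64.6 to 125) in ependymal-like cells, and these intervals did not overlap. Pars-tuberalis-like cells followed at 26.2 CPM (13.6 to 45.9) and VLMC-like cells (vascular and leptomeningeal cells) at 14.5 CPM (8.59 to 22.9). The intervals of these neighbours in the order overlapped. Pars-tuberalis-like cells passed 0 of 8 tanycyte markers, but the summed markers were at 1433 CPM there. That sum was 5633 CPM in tanycyte-like and 76.1 CPM in erythrocyte-like cells. The part of tanycyte RNA in the pars-tuberalis-like level was not tested. Dio2 UMIs were found in 59.9% (52.3 to 67.2%) of tanycyte-like and 54.2% (39.2 to 68.6%) of ependymal-like cells, against 1.65% (0.452 to 4.18%) of erythrocyte-like cells. After each cell was thinned to 3000 UMIs, the shares were 33.3% and 14.6%, with no erythrocyte-like cell left. Of all 387 Dio2 UMIs, 86.0% were in the clusters with tanycyte markers. Single cells differed widely: 71 of 177 tanycyte-like cells had no Dio2 UMI, 40 had 3 or more, and the highest had 18.

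Trhde (chr10:114398823-114802307, minus strand) shared this pattern. Its level was 72.6 CPM (60.7 to 86.1) in tanycyte-like and 50.4 CPM (31.2 to 77.1) in ependymal-like cells, with overlapping intervals, and at most 6.56 CPM elsewhere. Trhde was detected in 46.9% (39.4 to 54.5%) of tanycyte-like and 0.826% (0.100 to 2.95%) of erythrocyte-like cells. Of its 170 UMIs, 89.4% were in the clusters with tanycyte markers. Dio2 and Trhde were found together in 61 of 177 tanycyte-like cells, where their shares multiplied out to 49.7 cells. At 3000 UMIs per cell, a single random draw left 59 cells with Dio2 and 46 with Trhde, and the same counts were 12 cells and 15.3. The excess was not seen in these smaller counts, and the part of depth in it was not tested.

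**Figure D1:**
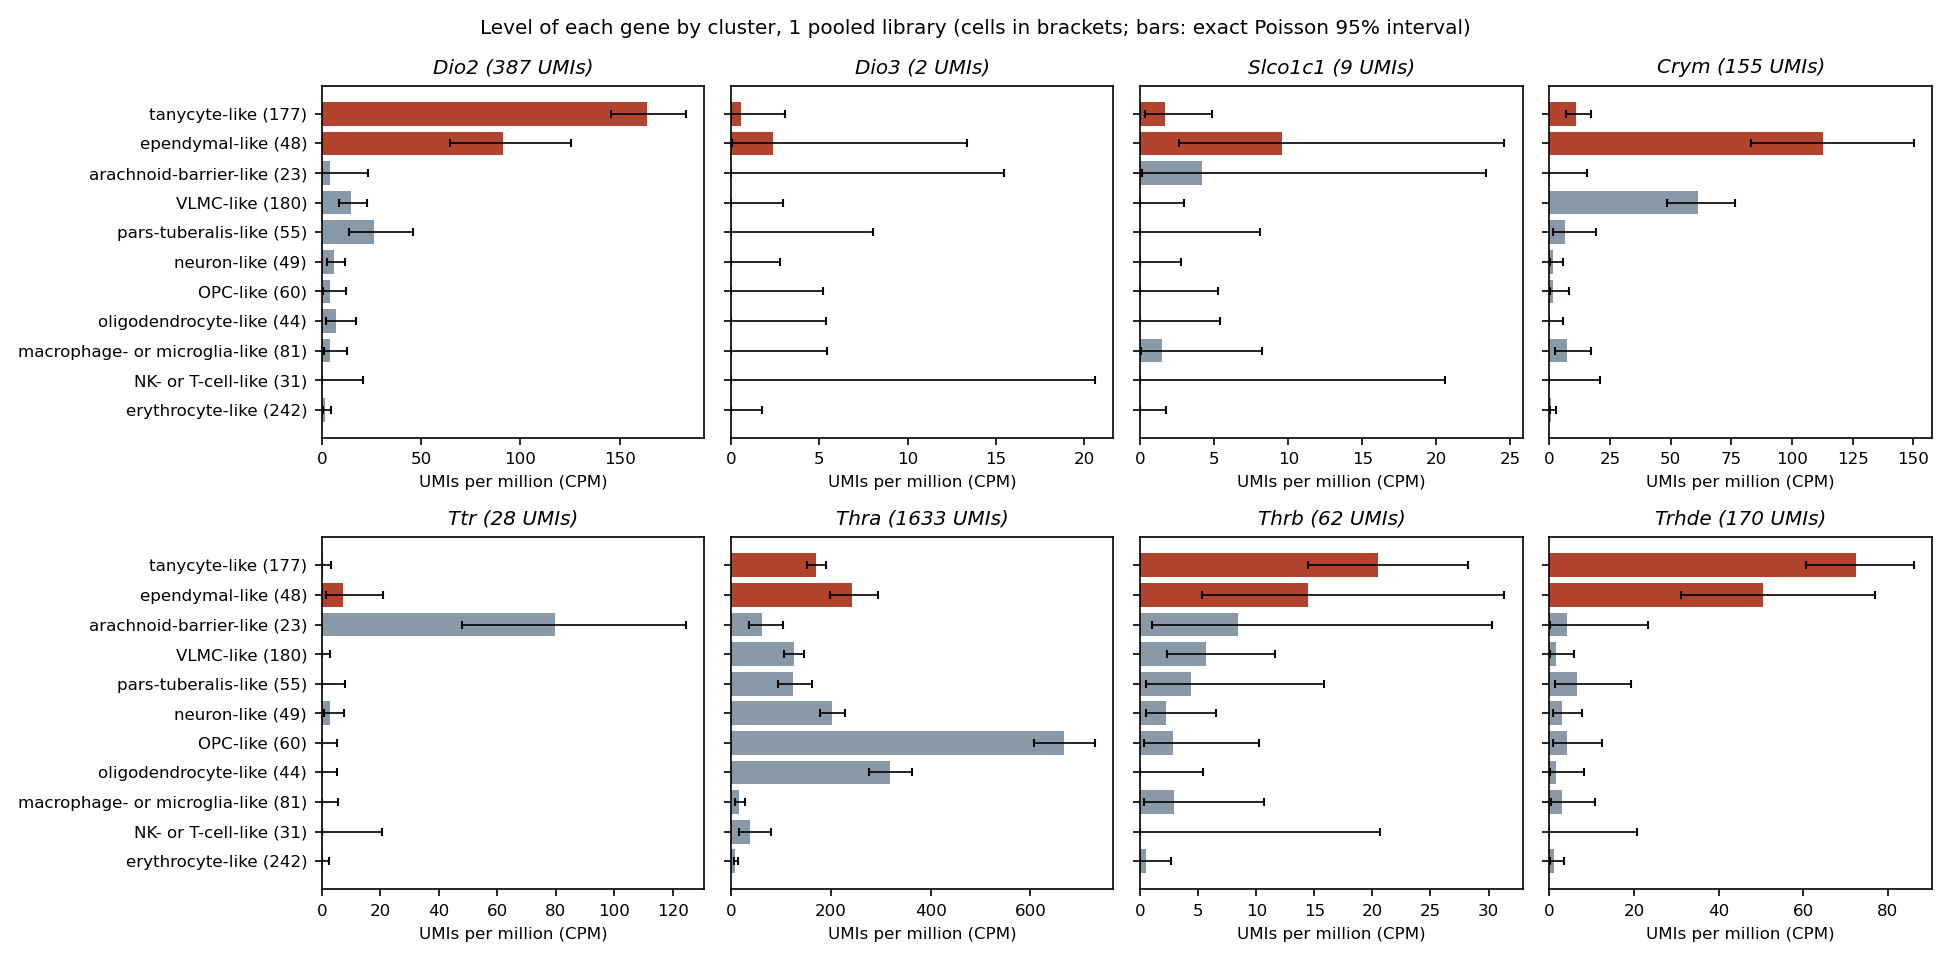
Level of each gene in CPM (horizontal axes, scales differ) by cluster (rows, number of cells in brackets), with red bars for clusters with tanycyte markers and lines for exact Poisson 95% intervals. Dio2 and Trhde stand out in the red rows, Thra in OPC-like cells at 667 CPM, and Crym in ependymal-like and VLMC-like cells, while Dio3 and Slco1c1 rest on 2 and 9 UMIs.

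A finer clustering divided tanycyte-like cells, and Dio2 was higher in the division in which Trhde was lower. One cluster of 99 cells was led by Ager, Scn7a and Adm, and the other, of 78 cells, by Cyr61, Fndc3c1 and Hes1. Dio2 was at 110 CPM (86.7 to 138) in the former and 196 CPM (171 to 224) in the latter, with intervals apart. Trhde was at 92.7 CPM (71.4 to 118) and 60.1 CPM (46.6 to 76.3), with intervals that overlapped. The median cell held 6665 UMIs in the former and 12198 in the latter, and at 3000 UMIs per cell Dio2 was at 125 and 184 CPM and Trhde at 128 and 76.9 CPM. The part of this difference in depth in the levels was not tested further.

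Slco1c1 (chr6:141524368-141570177, plus strand), the member of the OATP family with a preference for thyroxine, was nearly absent from the cells. Only 9 UMIs were counted, 4 in ependymal-like, 3 in tanycyte-like, and 1 each in arachnoid-barrier-like and in macrophage- or microglia-like cells. Its level was 9.61 CPM (2.62 to 24.6) in ependymal-like and 1.66 CPM (0.343 to 4.86) in tanycyte-like cells. Endothelial cells, in which the transporter is known, were few: 7 cells of the VLMC-like cluster carried 3 or more endothelial markers. That cluster had no Slco1c1 UMI, which allows up to 2.97 CPM (exact Poisson limit) over all of its cells. For the 7 cells alone, a count of 0 has an upper exact Poisson limit of 85.7 CPM. Slco1c1 in endothelial cells was therefore barely bounded. Dio3 (chr12:110279068-110281097, plus strand) had 2 UMIs, 1 in tanycyte-like and 1 in ependymal-like cells. At 0.900 CPM (0.109 to 3.25) in both clusters together, its level could not be ranked at this depth.

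Crym (chr7:120186380-120202111, minus strand) had a different order of clusters from Dio2. Its highest level was 113 CPM (82.9 to 150) in ependymal-like cells, with 61.2 CPM (48.2 to 76.6) in VLMC-like cells next. Tanycyte-like cells were at 11.1 CPM (6.77 to 17.1), close to macrophage- or microglia-like cells at 7.37 CPM (2.39 to 17.2). Crym UMIs were found in 41.7% (27.6 to 56.8%) of ependymal-like, 26.1% (19.9 to 33.2%) of VLMC-like and 9.04% (5.26 to 14.3%) of tanycyte-like cells, against 0.413% (0.0105 to 2.28%) of erythrocyte-like cells. At 3000 UMIs per cell the CPM values were 69.4, 59.3 and 7.53, from 10, 32 and 4 Crym UMIs. All 47 Crym-positive VLMC-like cells carried 3 or more VLMC markers and under 3 endothelial and mural markers, as did 173 of all 180 cells of the cluster. None of the 7 cells with 3 or more endothelial markers had a Crym UMI. That allows up to 85.7 CPM (exact Poisson limit), above the 63.4 CPM of the 173 cells. Crym in endothelial cells was therefore barely bounded. Crym and Dio2 were found together in 11 of 48 ependymal-like cells, where their shares multiplied out to 10.8 cells. Of the 155 Crym UMIs, 49.0% were in VLMC-like and 30.3% in ependymal-like cells.

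Ttr had 28 UMIs, of which 19 were in the 23 arachnoid-barrier-like cells, at 79.7 CPM (48.0 to 125). They came from 6 cells, with 10 of the 19 UMIs in 1 cell and 4 in another. These cells were also the deepest of the 6, with 47434 and 15837 UMIs of all genes, against 4187 to 7808 in the others. The part of depth in this was not tested. None of the 6 cells carried 3 or more choroid plexus markers, the tissue known for Ttr. Ependymal-like cells were at 7.20 CPM (1.49 to 21.1) and tanycyte-like cells at 0.554 CPM (0.0140 to 3.09).

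Thra (chr11:98740638-98769006, plus strand), the widely expressed receptor, had UMIs in every cluster and was highest in OPC-like cells (oligodendrocyte precursors), at 667 CPM (608 to 730). Oligodendrocyte-like cells followed at 318 CPM (277 to 363), ependymal-like cells at 243 CPM (198 to 295), neuron-like cells at 203 CPM (179 to 228) and tanycyte-like cells at 171 CPM (152 to 191). Each interval in this order overlapped that of the next, except between OPC-like and oligodendrocyte-like cells. The lowest levels were 16.2 CPM (8.09 to 29.0) in macrophage- or microglia-like and 9.04 CPM (5.44 to 14.1) in erythrocyte-like cells. Their intervals overlapped, so Thra in the former could not be told apart from the level of free RNA. Finer clustering divided OPC-like cells into 38 cells led by Top2a and C1ql1, at 313 CPM (260 to 373), and 22 cells led by Fyn, Enpp6 and Gpr17, genes of precursors committed to differentiation, at 1113 CPM (999 to 1236). At 3000 UMIs per cell these were 325 and 1273 CPM. The cells led by Enpp6 had a median of 17563 UMIs and those led by Top2a 10177.

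Thrb (chr14:17660261-18038090, plus strand), the other receptor, was sparse, with 62 UMIs in all. It was at 20.5 CPM (14.4 to 28.3) in tanycyte-like and 14.4 CPM (5.29 to 31.4) in ependymal-like cells, intervals that overlapped, and at most 8.39 CPM elsewhere. These clusters held 69.4% of its UMIs. UMIs of Thrb were found in 14.7% (9.83 to 20.8%) of tanycyte-like and 0.413% (0.0105 to 2.28%) of erythrocyte-like cells. After thinning to even depth, Thrb was at 13.2 CPM in tanycyte-like, 13.9 in ependymal-like, 14.5 in arachnoid-barrier-like and 12.1 in pars-tuberalis-like cells. These rest on 7, 2, 1 and 2 UMIs, too few to rank the clusters. Thinned clusters with tanycyte markers together were at 13.3 CPM and all other cells at 3.92 CPM, from 9 UMIs each. The tanycyte-like cluster, like most others, had UMIs of both receptors, but their presence in the same cell was not tested. Oligodendrocyte-like cells had 218 UMIs of Thra and none of Thrb, which allows up to 5.38 CPM (exact Poisson limit).

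**Figure D2:**
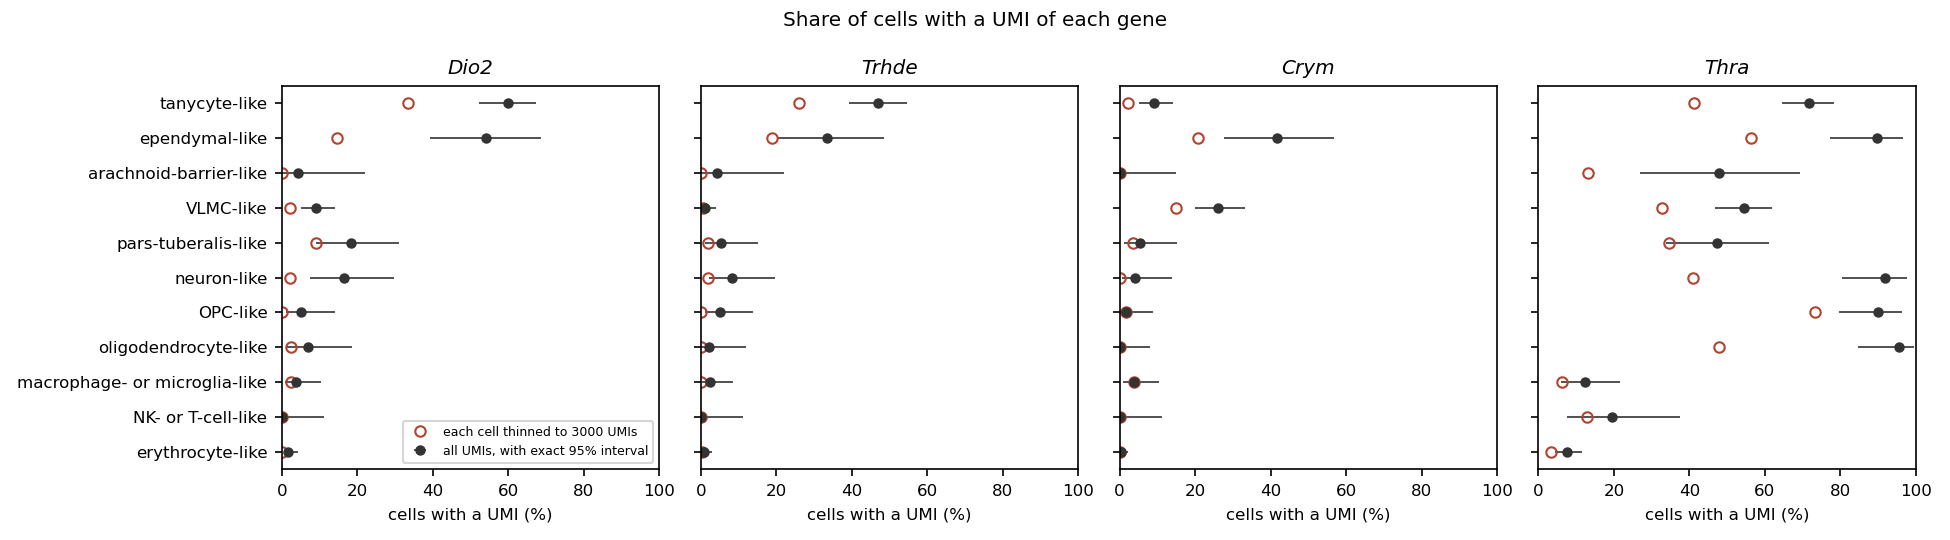
Share of cells with at least 1 UMI (horizontal axis, %) by cluster for Dio2, Trhde, Crym and Thra, as black points with exact 95% intervals for all UMIs and open red circles after each cell was thinned to 3000 UMIs. The Dio2 share in tanycyte-like cells goes from 59.9% to 33.3%, and that of Thra in neuron-like cells from 91.8% to 40.8%.

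Across the 11 clusters, the genes whose levels followed each member most closely were found among 11096 genes with at least 50 UMIs, by Pearson's r of log2(CPM + 1). These values describe 11 clusters of 1 library with unequal depth. For Dio2 they were Lix1 (r = 0.98), Fzd5, Enho, Fndc3c1 and Trpm3 (r = 0.96 each). For Trhde they were Grik3 (r = 0.95), Fndc3c1 (r = 0.95), A330048O09Rik, Pla2g5 and Sdsl. Thrb was followed by Palld, Tcea3, Lpar4, A2m and Echdc2 (r from 0.94 to 0.95). Crym was followed by Clec3b, Rbm46, Nfatc4, Ccdc122 and Plekhg2 (r from 0.85 to 0.89), and Thra by Tbc1d7, 4930402H24Rik, Zfp580, Deaf1 and Hcfc2 (r from 0.95 to 0.98). Among the 5 members with at least 50 UMIs, Dio2 and Trhde were most alike (r = 0.92) and Crym and Thra least (r = 0.20).

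Other genes of the pathway were read by lists. Tshr, the thyrotropin receptor, was at 75.9 CPM (63.7 to 89.7) in tanycyte-like and 55.2 CPM (35.0 to 82.9) in ependymal-like cells. It was at 45.9 CPM (28.4 to 70.2) in pars-tuberalis-like and 3.81 CPM (1.64 to 7.50) in erythrocyte-like cells. The part of tanycyte RNA in the pars-tuberalis-like level of Tshr was not tested. The subunits of its ligand, Tshb and Cga, were at 641 CPM (570 to 719) and 13477 CPM (13142 to 13818) in pars-tuberalis-like cells. Trhr, the TRH receptor, had 20 of its 24 UMIs in tanycyte-like cells, at 11.1 CPM (6.77 to 17.1). Among 8 transporters, 5 had at least 50 UMIs, and Slco1c1 was not among them, with a UMI in 1.69% (0.351 to 4.87%) of tanycyte-like cells. Slco1a4, a related organic anion transporter, had 22 of its 32 UMIs in tanycyte-like cells, at 12.2 CPM (7.64 to 18.5). Slco2b1 and Slc3a2 were highest in macrophage- or microglia-like cells, at 252 CPM (216 to 293) and 402 CPM (356 to 453).

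Dio1, the liver and kidney deiodinase, and the plasma binding proteins Alb and Serpina7 had 0 UMIs. A floor of 3 UMIs is 1.66 CPM in tanycyte-like cells. Secisbp2, needed for selenoprotein synthesis, was highest in ependymal-like cells at 50.4 CPM (31.2 to 77.1). NK- or T-cell-like cells at 44.7 CPM (19.3 to 88.1) were next, with an overlapping interval. March6, a ubiquitin ligase that degrades Dio2, was highest in tanycyte-like cells at 91.4 CPM (78.0 to 106). Neuron-like cells at 86.8 CPM (71.7 to 104) were next. All 11 receptors, partners and coregulators reached 50 UMIs. Thrb, Rxra and Ncoa1 were the 3 highest in a cluster with tanycyte markers, and none of them stood apart from the next cluster by its interval. Of 8 thyroid hormone responsive genes, Thrsp and Dbp were highest in ependymal-like cells. Thrsp, a lipogenesis gene, was at 555 CPM (486 to 631) there and 456 CPM (426 to 489) in tanycyte-like cells. Pars-tuberalis-like cells were next at 107 CPM (79.3 to 142), and the part of tanycyte RNA in that level was not tested. Dbp was at 737 CPM (657 to 825) in ependymal-like and 671 CPM (626 to 718) in VLMC-like cells, with intervals that overlapped. Klf9, a transcription factor induced by the hormone, was highest in VLMC-like cells at 1072 CPM (1015 to 1131), against 314 CPM in tanycyte-like cells; it was named after its values were seen.

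Bulk libraries held between 4928456 and 13816596 counted reads, and between 17874 and 40852 genes with at least 1 read. Control libraries 1 to 3 had 34942, 21986 and 17874 such genes, and mutant libraries 1 to 4 had 25910, 35978, 40852 and 39508. This number, used below as a covariate, was thus not balanced between groups. Counts were scaled by TMM factors, expressed as reads for every 1000000 counted (CPM) and compared, mutant against control, with edgeR's quasi-likelihood test over 20466 genes that passed its filter on low counts. No gene passed an adjusted p of 0.05 (0 of 20466, 0%), and 1661 had an unadjusted p under 0.05 (8.12%). In bulk tissue, fewer cells of a type and less RNA per cell cannot be told apart. Of the 8 members, 7 passed the filter and Dio3 did not. None of the 7 was called in either direction, and 2 of 7, Crym and Dio2, had an unadjusted p under 0.05. One of 7, Crym, was higher in all mutant than in all control libraries, which held for 5.83% of all genes tested, and 0 were lower in all of them, which held for 3.18%. All 7 had a positive log2 fold change, with a median of 0.60, where 56.7% of all genes tested were positive and their median was 0.13. With library sizes alone as scaling, the median of all genes was 0.25.

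**Figure D3:**
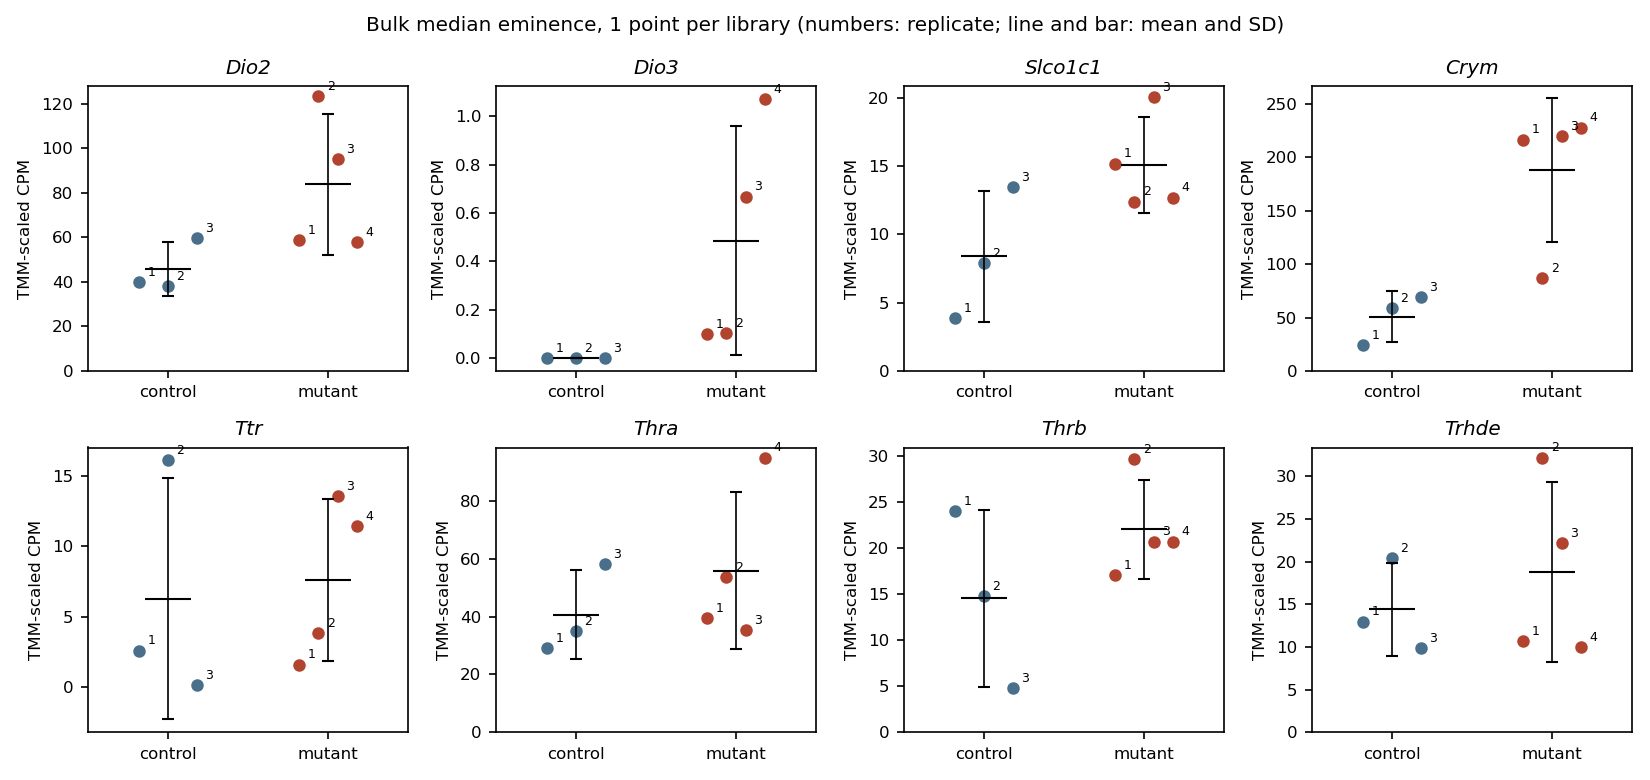
TMM-scaled CPM of each gene (vertical axes, scales differ) in control and mutant ME, 1 point per library with its replicate number, and the mean and SD of each group as line and bar. Crym is the tested gene whose groups lie apart, with mutant library 2 at 87.0 CPM just above the highest control at 69.1 CPM, and the groups of the other 6 tested genes overlap.

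Crym was at 24.2, 59.2 and 69.1 CPM in the control libraries and at 216.7, 87.0, 220.0 and 227.9 CPM in the mutant libraries. Every mutant library was above every control library, by a narrow margin for mutant library 2. The means were 50.8 CPM ± 23.6 (SD, n = 3) and 188 CPM ± 67.4 (SD, n = 4). The log2 fold change was 1.88 (SE 0.46, 95% interval 0.88 to 2.89), with an unadjusted p of 0.0018 and an adjusted p of 0.36 in edgeR. The call depended on the method: the adjusted p was 0.0151 in DESeq2 and 0.00537 in edgeR without the filter, and from 0.00537 to 0.9998 over all alternatives, with log2 fold changes of 1.52 to 2.48. The study listed Crym, from these libraries, among tanycyte markers enriched in tumour tissue, so its direction here is not independent evidence. In the single-cell data Crym was at 11.1 CPM in tanycyte-like cells. It was at 113 CPM in ependymal-like cells, which passed 4 of 8 tanycyte markers. Summed markers of VLMCs, which carried Crym in the single-cell data, were lower in all mutant libraries (431 to 792 CPM over 6 genes, 1 of 5 tested with a positive change) than in controls (1104 to 2918 CPM), with Igf2 at 0 in a library. Summed ependymal markers overlapped, at 128 to 247 CPM in mutants and 135 to 250 CPM in controls over 8 genes, 3 of 8 positive and none at 0. Summed tanycyte markers overlapped too, at 557 to 1020 CPM in mutants and 710 to 945 CPM in controls over 8 genes. Of these, 5 of 7 tested were positive, and Mia was at 0 in a library. The part of VLMCs, ependymal cells and tanycytes in the Crym difference was not tested.

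Dio2 was at 39.9, 37.9 and 59.6 CPM in the control libraries and at 58.6, 123, 95.03 and 57.9 CPM in the mutant libraries. Mutant libraries 2 and 3 were above all controls, and libraries 1 and 4 lay just below control library 3. The means were 45.8 CPM ± 11.96 (SD, n = 3) and 83.7 CPM ± 31.6 (SD, n = 4). The log2 fold change was 0.87 (SE 0.36, interval 0.08 to 1.67), with an unadjusted p of 0.0348 and an adjusted p of 0.57 in edgeR. Summed tanycyte markers overlapped between groups, at 557 to 1020 CPM in mutants and 710 to 945 CPM in controls over 8 genes, 5 of 7 tested positive, with Mia at 0 in a library. Trhde, which shared the Dio2 pattern over clusters, was at 12.99, 20.4 and 9.84 CPM in controls and at 10.7, 32.2, 22.2 and 10.0 CPM in mutants. Its groups overlapped, with the highest value again in mutant library 2. The log2 fold change of Trhde was 0.38 (SE 0.52, interval -0.76 to 1.52) with an adjusted p of 0.90 in edgeR, and it was 0.0010 without mutant library 2. Exons of an antisense gene, Gm15723, cover 6.67% of Trhde exons, and those of Gm26512 cover 1.72% of Dio2 exons. The libraries do not keep strand, so such reads cannot be told apart.

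Slco1c1 was at 3.84, 7.91 and 13.4 CPM in the control libraries and at 15.2, 12.4, 20.04 and 12.7 CPM in the mutant libraries. Control library 3 lay within the mutant range and the other controls below it. For Slco1c1 the log2 fold change was 0.84 (SE 0.51, interval -0.30 to 1.98) with an adjusted p of 0.74 in edgeR, and it was 1.51 with each library's number of detected genes as a covariate (the detected-genes covariate). Endothelial markers, 7 genes of the cells known for this transporter, summed to 284 to 453 CPM in controls and 83.99 to 155.5 CPM in mutants. Their sum was lower in all mutant libraries, with 1 of 7 positive and none at 0. The part of endothelial cells in the Slco1c1 values was not tested. Dio3 had 0 reads in each control library and 1, 1, 4 and 6 reads in the mutant libraries. Over the groups that is 0 of 34375254 reads, where a floor of 3 reads is 0.0873 CPM, and 12 of 30691728 reads, or 0.391 CPM. Mutant libraries 3 and 4, with 4 and 6 of these reads, also had the most genes detected (40852 and 39508). The part of this in the Dio3 reads was not tested. Since reads were amplified without molecular identifiers, 12 reads may stand for fewer molecules. The main comparison dropped Dio3 for low counts. In edgeR without the filter its log2 fold change was 5.05 with an adjusted p of 0.50, and in DESeq2 it was 4.80, without an adjusted p.

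Thra was at 29.2, 34.9 and 58.0 CPM in the control libraries and at 39.6, 53.6, 35.4 and 94.9 CPM in the mutant libraries. The groups overlapped, and mutant library 4 was the highest. For Thra the log2 fold change was 0.45 (SE 0.41, interval -0.46 to 1.37) with an adjusted p of 0.84 in edgeR, and it was 0.09 without mutant library 4. Summed OPC markers, 8 genes of the cells with the highest Thra, were at 91.6 to 152 CPM in controls and 248 to 882 CPM in mutants, with 8 of 8 positive and Cspg4 and C1ql1 at 0 in a library. The part of OPCs in the Thra values was not tested. Exons of Nr1d1 on the opposite strand cover 5.70% of Thra exons, and reads there cannot be told apart. Thrb was at 24.1, 14.8 and 4.79 CPM in controls and at 17.1, 29.7, 20.7 and 20.7 CPM in mutants. Its controls spanned the lowest value and one above 3 of 4 mutant libraries. The log2 fold change of Thrb was 0.60 (SE 0.52, interval -0.55 to 1.75) with an adjusted p of 0.82 in edgeR, and it was 0.20 without control library 3 and 1.14 without control library 1.

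Ttr was at 2.60, 16.1 and 0.171 CPM in the control libraries and at 1.60, 3.86, 13.5 and 11.4 CPM in the mutant libraries. The groups overlapped, and the lowest control library held 2 reads and the lowest mutant library 16. For Ttr the log2 fold change was 0.27 (SE 1.14, interval -2.26 to 2.80) with an adjusted p of 0.97 in edgeR, and the direction turned in 4 alternatives. Summed choroid plexus markers, 8 genes, were at 52.0 to 165 CPM in controls and 62.7 to 95.5 CPM in mutants, with 3 of 7 tested positive and Kcne2 and Aqp1 at 0 in a library.

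Levels of different genes were compared per kilobase of exon (GENCODE M21). In control libraries the order was Crym at 15.0 CPM per kb ± 6.96 (SD, n = 3), Thra at 8.82 ± 3.31, Dio2 at 7.87 ± 2.06, Ttr at 5.30 ± 7.22, Thrb at 1.97 ± 1.30, Trhde at 1.79 ± 0.674 and Slco1c1 at 1.62 ± 0.928. No neighbours in this order differed by more than the sum of their SDs. In mutant libraries Crym was at 55.4 CPM per kb ± 19.9 (SD, n = 4), Dio2 at 14.4 ± 5.44 and Thra at 12.1 ± 5.89.

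Among the 46 genes of the pathway lists, 43 were tested, 0 rose and 0 fell past the adjusted threshold, and 23 had a positive log2 fold change, with a median of 0.15. In all mutant libraries 4 were higher (Crym, Trh, Hr and Klf9) and 1 was lower (Cga), beside 5.83% and 3.18% of all genes tested; Hr, Klf9 and Cga were named after their values were seen. Trh, the releasing hormone of the axis, was at 0, 1.69 and 0 CPM in controls and at 2.70, 3.86, 4.68 and 3.04 CPM in mutants. No library held more than 37 Trh reads. The log2 fold change of Trh was 2.62 (SE 1.56, interval -0.82 to 6.07) with an adjusted p of 0.72 in edgeR. It was 7.95 without control library 2, the only control with a Trh read. Cga, the shared subunit of thyrotropin and the gonadotropins, was at 4073, 896.7 and 1027 CPM in controls and at 592.6, 333, 762 and 154 CPM in mutants, with a log2 fold change of -2.12 (SE 0.63, adjusted p 0.44 in edgeR). The call on Cga depended on the method, with an adjusted p of 0.0435 in DESeq2 and 0.00037 in edgeR without the filter. Its log2 fold change was -1.09 without control library 1. Summed pars tuberalis markers, 6 genes that include Cga itself and Tshb, overlapped at 2431 to 13190 CPM in controls and 797 to 4149 CPM in mutants, 1 of 6 positive and none at 0. Summed markers of other pituitary endocrine cells, 6 genes, overlapped at 706 to 15260 CPM in controls and 971 to 20160 CPM in mutants. Of these, 1 of 4 tested was positive, and Pou1f1 was at 0 in a library. Control library 1 was the highest control in both sums. The part of pituitary cells in the Cga values was not tested. Tshr overlapped between groups as well, with a log2 fold change of -0.29 (SE 0.41) that turned to 0.20 without control library 2.

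**Figure D4:**
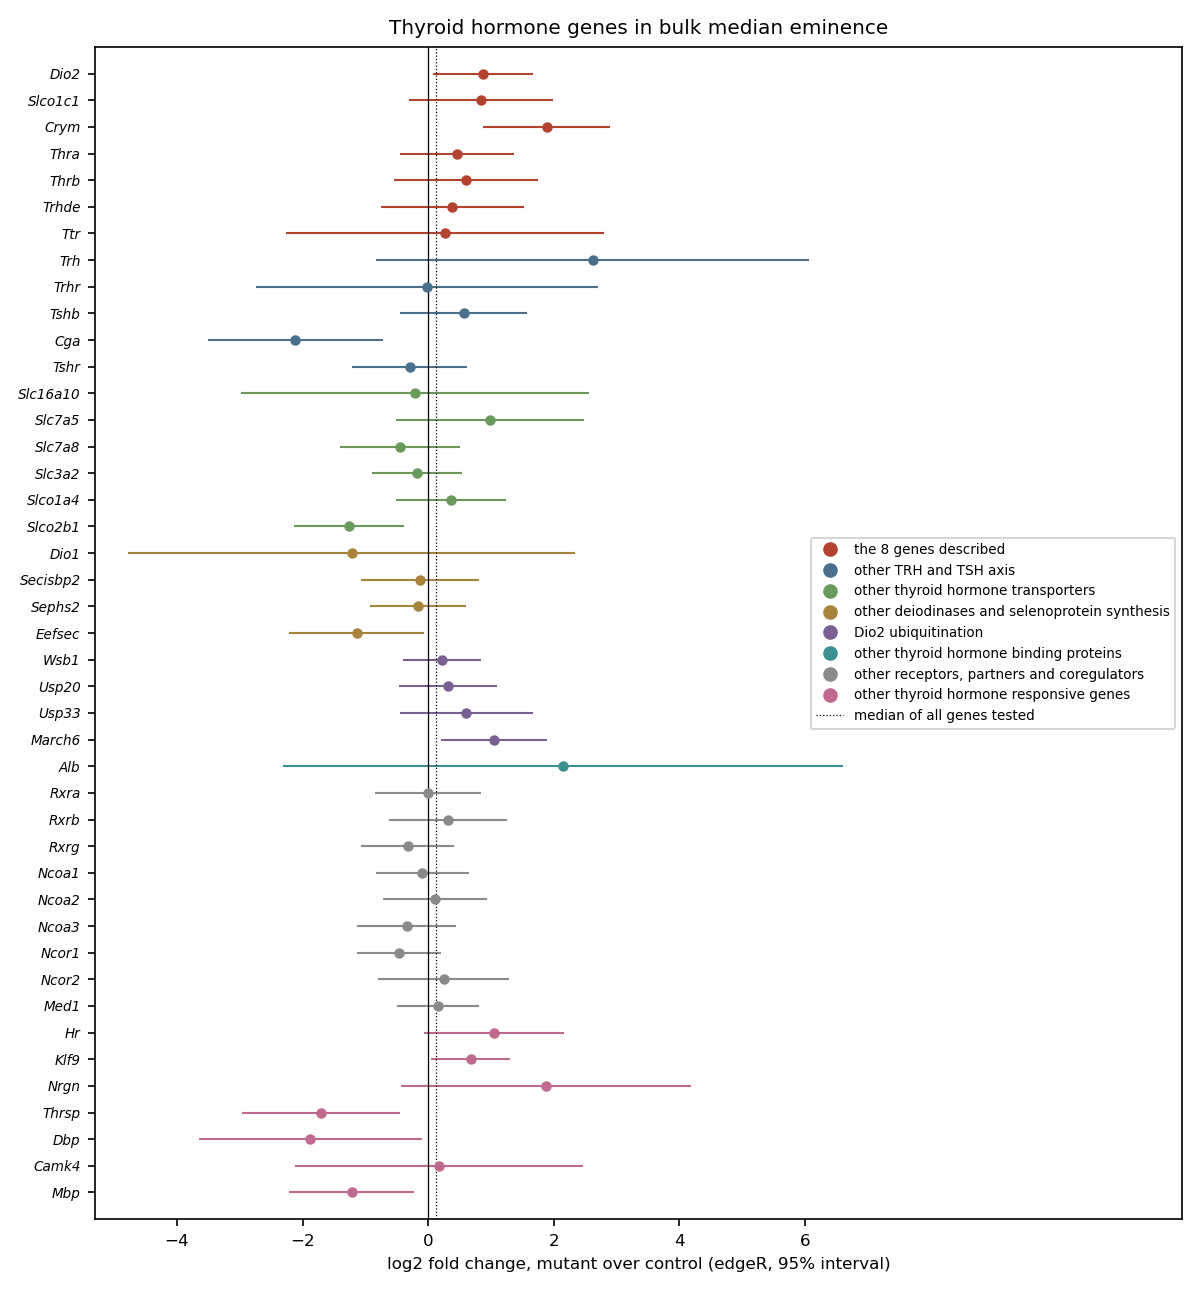
Log2 fold change of the tested members and most other pathway genes, mutant over control (horizontal axis), with 95% intervals from edgeR, coloured by list; the dotted line is the median of all genes tested, 0.13. The intervals of Crym, from 0.88 to 2.89, and Dio2, from 0.08 to 1.67, exclude 0 before adjustment for multiple tests, and those of the other 5 tested members include it.

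Transporters had 3 of 8 positive changes and a median of -0.19. Slco2b1 had the largest, at -1.26 (SE 0.40, adjusted p 0.45 in edgeR), and -0.61 with the detected-genes covariate. Deiodinases and selenoprotein genes had 1 of 5 positive, Dio2, and a median of -0.16; the largest change was that of Dio1, -1.22 (SE 1.61), at no more than 3.50 CPM in any library, and -0.59 without control library 1. All 4 Dio2 ubiquitination genes were positive with a median of 0.46, led by March6 at 1.04 (SE 0.38, adjusted p 0.52 in edgeR). Of the binding proteins, Alb had 2.15 (SE 2.01) with 0 reads in 3 of 7 libraries, which turned to -0.85 with the detected-genes covariate, and Serpina7 was not tested. Receptors, partners and coregulators had 6 of 11 positive and a median of 0.11, and Thrb had the largest change. Responsive genes had 4 of 7 positive and a median of 0.17. Nrgn, a neuronal calmodulin-binding gene, had the largest at 1.88 (SE 1.04), and 0.95 with the replicate block. Dbp, a clock output gene, was at -1.88 (SE 0.80), and at -3.45 without mutant library 1. In edgeR the adjusted p of Dbp was 0.59, and 0.0020 without the filter.

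Genes that respond to the hormone differed in the sign of their values. Hr, a corepressor induced by thyroid hormone in brain, was at 13.1, 10.2 and 3.51 CPM in controls and at 14.9, 17.3, 22.9 and 18.9 CPM in mutants (log2 fold change 1.05, SE 0.50, adjusted p 0.64 in edgeR). Klf9 was at 35.8, 33.2 and 45.6 CPM in controls and at 68.9, 51.7, 54.4 and 69.9 CPM in mutants (0.68, SE 0.28, adjusted p 0.58 in edgeR). The groups were apart for both genes. Thrsp was at 107, 289 and 722 CPM in controls and at 199.8, 79.3, 76.8 and 102 CPM in mutants (-1.70, SE 0.57, adjusted p 0.49 in edgeR), overlapping in mutant library 1. Without control library 3 the value of Thrsp was -0.76, with the detected-genes covariate it was -0.14, and without the filter its adjusted p in edgeR was 0.0046. Mbp, a myelin gene, had a log2 fold change of -1.22 (SE 0.45, adjusted p 0.52 in edgeR), which was -0.54 without control library 2 and -0.45 with the covariate. Summed oligodendrocyte markers, 7 genes, were at 2929 to 11190 CPM in controls and 2068 to 3514 CPM in mutants, with 0 of 7 positive and none at 0.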

How the data were processed

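Single-cell reads were aligned by the authors with Cell Ranger (2.0.1 in the submitters' processing notes) on GRCm38, and the deposited values are UMI counts per gene and cell, without normalization. For the bulk libraries, made by Smart-seq2 without strand or molecular identifiers, the authors deposited raw read counts per Ensembl gene in 1 library per mouse; the aligner and counter are not given in the sources used here, and DESeq2 is in the processing notes. The depth was 9846289 UMIs for 990 cells and 4928456 to 13816596 counts per bulk library. Unused columns: 0. The genes described and the gene lists were chosen with earlier results of these data known.

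Cells were log-normalized (scale factor 10000), and variable genes (mean 0.02 to 8, dispersion over 0.5), less the members and pathway genes, were clustered in Seurat 5.3.0 (20 components, resolution 0.8). A cluster was named where 3 or more markers, each with 3 or more UMIs, were 3-fold above the remaining cells. Some clusters met this for further types. VLMC-like cells also passed 7 of 7 endothelial and 5 of 6 mural markers, and macrophage- or microglia-like cells 4 of 4 mast cell markers. Pars-tuberalis-like cells passed 3 of 6 markers of other pituitary cells, and tanycyte-like cells 3 of 8 choroid plexus markers. Such clusters may hold more than 1 cell type. Scrublet (scanpy 1.11.5, expected rate 0.06) marked 3 of 990 cells, which were kept. Intervals and floors (3 counts) cover counting error only. The bulk comparison used edgeR 4.0.16 under R 4.3.3 (TMM, filterByExpr, quasi-likelihood, Benjamini-Hochberg) with group as the only term. That bulk libraries are separate mice comes from the study's methods, and standard errors are the log2 fold change over the root of the F statistic. All 55450 bulk identifiers were in GENCODE M21. Named genes were all members, the gene of each list with the largest absolute bulk change, list genes highest in a cluster with tanycyte markers, and the 5 genes most like each member with at least 50 UMIs. Other pathway genes given with values were chosen after their values were seen, and 1 pathway gene is not reported here. Promoter sequences are from RefSeq (GRCm38.p6), with windows for 5 of 8 members. The bulk test and the Poisson interval were run on counts simulated from values fitted to these data. That checks the steps and not the results above. Alternatives were other scalings, filters and tools (DESeq2 1.42.0, limma-voom 3.58.1), the replicate number as a block, genes detected as a covariate, each library left out, other clusterings, and thinning to 3000 UMIs.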

Additional observations from a re-analysis of the deposited data

Results flagged for a closer look

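Among the 4 mutant libraries, 4 of 44 tested genes (the 43 of the pathway lists and Trhde) had 1 library far from the other 3 by Dixon's gap ratio at its 95% critical value, where chance flags about 1 group in 20. Crym was at 87.0 CPM in mutant library 2, and at 216.7 CPM or more in the other 3 (gap ratio 0.921). Dbp, a clock output gene, was at 122.5 CPM in mutant library 1, and at 16.4 CPM or less in the other 3 (0.939). Ncoa1, a receptor coactivator, was at 48.8 CPM in mutant library 4, and at 28.2 CPM or less in the other 3 (0.953). Dio1 was at 2.51 CPM in mutant library 3, and at 0.536 CPM or less in the other 3 (0.854). The 4 flags fall in 4 different libraries, and their causes were not tested.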

How the results depend on the processing

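The count of bulk genes past an adjusted p of 0.05 was 0 in edgeR with TMM scaling and depended on the method: it was 1 with upper-quartile scaling, 3 with library sizes alone, 363 in DESeq2, 240 in edgeR without the filter, 13 with at least 10 counts in every library, and 0 in limma-voom. Leaving out each library in turn gave 0 to 45 genes, with 45 without control library 1 and 16 without control library 3. The causes were not tested. Among recomputed log2 fold changes of the 7 tested members, 98 kept direction and side of the threshold, 2 of Crym passed it (DESeq2 1.89, no filter 1.83), and 4 of Ttr turned. Its values were -0.31 to 2.43 over the libraries left out: -0.15 without control library 1, -0.31 without control library 3, -0.13 without mutant library 3 and -1.54 with the number of detected genes as a covariate. With at least 10 counts in every library, Ttr was not tested. With the replicate block the count of calls was 0, with 549 genes at an unadjusted p under 0.05 against 1661, and no member's call changed. Libraries with the same number share only that number: their deviations correlated at -0.45, -0.01 and -0.23, and no library correlated best with its own number. In the clusters with tanycyte markers, Dio2 was at 149.9 CPM, at 128.7 as the mean of each cell's CPM and at 130.4 after thinning to 3000 UMIs. Thinning also moved Crym from 30.2 to 20.7, Thrb from 19.4 to 13.3 and Trhde from 68.4 to 97.8 CPM. These thinned values rest on a single random draw that kept 14, 9 and 66 UMIs, and the error of the draw was not counted. As the mean of each cell's CPM, Crym, Thrb and Trhde were at 30.1, 16.4 and 76.4 CPM. The other 59 recomputed levels moved by less than their counting interval. Depth limits Dio3, Slco1c1 and Ttr most, since 3 UMIs are 1.66 CPM in tanycyte-like cells.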
